A study of Saccharomyces cerevisiae with 6 samples.

Results

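The 104 fragments described here came from a single nucleosome position in CAR2 (YLR438W), the yeast gene for ornithine aminotransferase, which acts in the breakdown of arginine. They were the fragments of the deposited lists on chromosome XII that lay between bases 1012501 and 1012760 (build R64, counted from 1) and had at least 10 reads, summed over 2 sequencing runs, in each of 2 gel sections. Of 628 distinct fragments of that window in any list, 104 met this minimum, as did 9277 of the 220689 fragments of the whole series. The read counts of the 2 sections therefore chose the members, and how these counts differ between the sections is given below as a description.

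The library was built from nucleosome DNAs of Saccharomyces cerevisiae strain FY251, released by micrococcal nuclease. They were ligated between adaptors into the circular minichromosome YCp1.3 and carried by pooled yeast transformants, 1 insert per minichromosome. Their DNA was run once on an agarose gel that separates topoisomers of DNA. Topo-seq-A was the DNA eluted from section A, above the mean of the linking number (Lk) distributions, where inserts restraining less negative ∆Lk are enriched. Topo-seq-B was the DNA of section B, below that mean, where inserts restraining more negative ∆Lk are enriched, and NucLib was the library before the gel. The paper states that short inserts were also enriched in section B, because their circles ran faster. The ratio of the 2 sections therefore varies with insert length as well as with ∆Lk. All samples shared the strain and the pool of colonies, and each was sequenced in 2 runs of the same DNA. The spread between runs is that of sequencing and not of cultures, gels or transformations.

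A nucleosome wraps DNA around a histone core in left-handed turns, and in a closed circle this wrapping shows as a negative linking number difference, ∆Lk, once the histones are removed. Micrococcal nuclease cuts the DNA between nucleosomes and then trims inward from either side, so that a single nucleosome can give a nested series of fragments. In such a series the length and the side that was trimmed vary, and with them the part of the sequence that is kept. Whether each fragment listed here was cloned as such was not tested. Below, trimmed describes only the position of a fragment relative to the most abundant insert.

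The most abundant insert of the window was a fragment of 146 bp, chrXII:1012551-1012696. It covered bases 51 to 196 of the CAR2 coding sequence, from codon 17 to codon 66, on the plus strand, in which the gene is read. The sequence occurred once in the reference genome on either strand, so the annotated position was its only source in the genome. Its GC content was 56.8%. It is printed from the RefSeq R64 reference, with capitals for the 22 bases, chrXII:1012611-1012632, that were kept by every shorter member sharing 1 of its ends.
insert: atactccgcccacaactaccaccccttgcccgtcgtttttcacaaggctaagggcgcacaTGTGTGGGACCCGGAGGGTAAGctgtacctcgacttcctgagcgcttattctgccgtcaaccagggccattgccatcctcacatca

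Members were classed by the end they had in common with this insert. Besides the insert, 64 members had its start and differed in their end, 35 had its end and differed in their start, and 4 shared neither end. Fragments with the start of the insert are trimmed at the side toward the 3′ end of the gene, and those with its end are trimmed at the side toward the 5′ end. The start-shared class held every length between 82 and 145 bp except 108 bp, and a fragment of 148 bp that ran 2 bases past the insert. The end-shared class ran between 86 and 147 bp, the longest of them beginning 1 base before the insert. GC content varied little, between 56.3% and 59.0% among start-shared members and between 55.4% and 58.2% among end-shared ones. The map of members shows the nested layout.

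**Figure D1:**
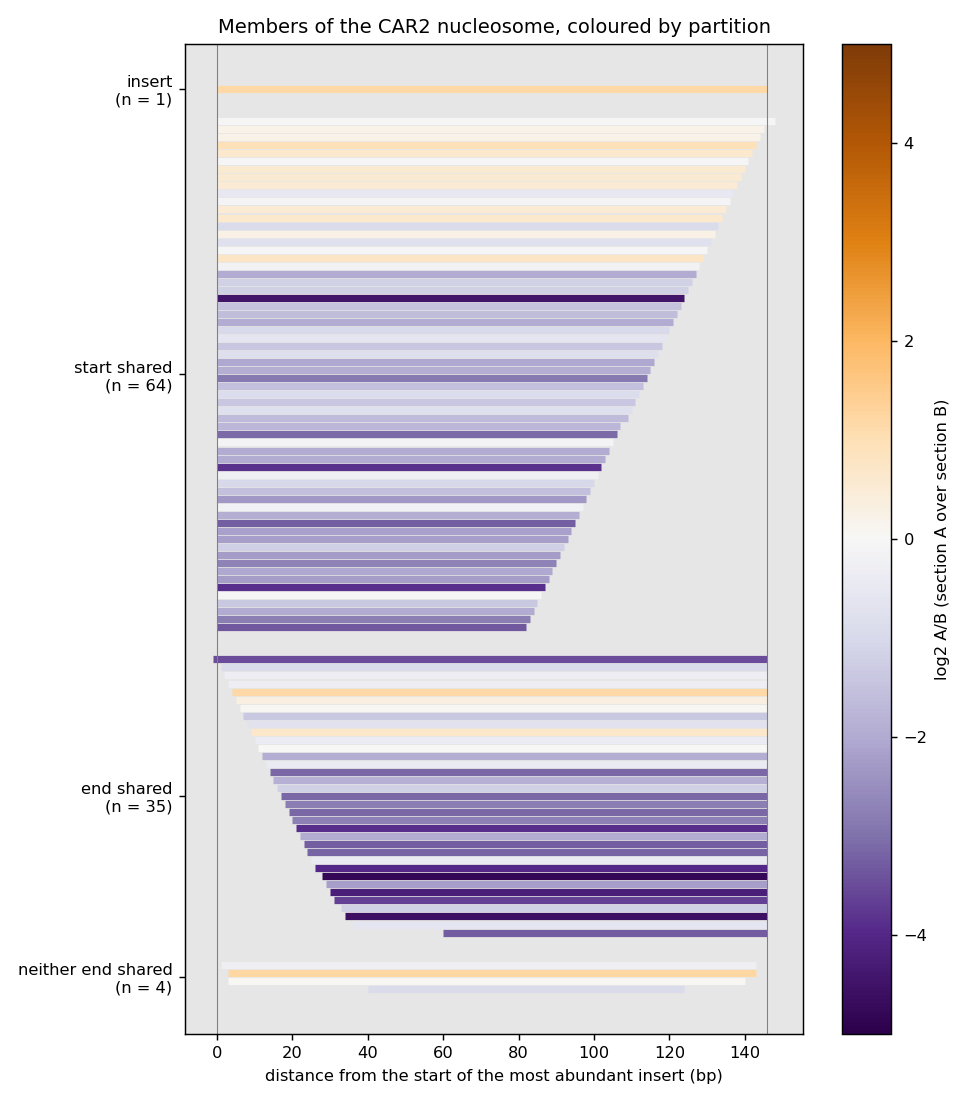
Each bar is 1 of the 104 members, drawn by its distance from the start of the insert (bp) and coloured by log2 A/B, the ratio of its share of reads in section A to that in section B (orange, higher in A; purple, higher in B). The longest bars of the start-shared and end-shared classes are pale or orange, with the 147-bp end-shared bar as an exception, and purple bars prevail among the shorter ones.

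The members on which most of the following turns are printed from the same reference, with the inner end, where the fragment departs from the insert, in capitals (10 bases). The start-shared fragment of 124 bp (chrXII:1012551-1012674) was the most abundant nested fragment of section B. The end-shared fragments of 116 bp (chrXII:1012581-1012696) and 142 bp (chrXII:1012555-1012696) were among the members with the lowest and the highest A/B. For the end-shared fragment of 147 bp (chrXII:1012550-1012696), the capital is the single base added to the insert.
start-shared 124: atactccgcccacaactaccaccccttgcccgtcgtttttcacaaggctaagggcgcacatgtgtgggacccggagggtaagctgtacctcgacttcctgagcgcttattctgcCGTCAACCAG
end-shared 116: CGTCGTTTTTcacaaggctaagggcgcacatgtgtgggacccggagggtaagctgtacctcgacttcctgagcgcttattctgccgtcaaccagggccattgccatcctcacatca
end-shared 142: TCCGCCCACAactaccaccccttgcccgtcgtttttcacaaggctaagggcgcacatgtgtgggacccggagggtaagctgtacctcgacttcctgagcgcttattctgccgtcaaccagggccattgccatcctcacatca
end-shared 147: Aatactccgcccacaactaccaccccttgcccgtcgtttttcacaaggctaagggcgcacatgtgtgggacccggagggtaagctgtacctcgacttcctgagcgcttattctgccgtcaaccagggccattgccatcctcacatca

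The lists held 2073823 and 1698433 reads for section A, 1480629 and 1865197 for section B and 851697 and 1748161 for NucLib. Every list was limited to its 65536 most abundant fragments. The totals are therefore lower bounds, and a fragment that is not listed may have had reads up to the lowest listed count. That count was 1 per run in section A and NucLib and 2 per run in section B. The window took 7.65% and 7.74% of the reads of section A, 3.97% and 4.06% of those of section B, and 6.14% and 6.31% of those of NucLib. Levels below are reads over the total of the list, and A/B is the ratio of these shares after adding the 2 runs. Intervals on A/B are exact binomial 95% intervals and cover counting error only, since PCR copies are not independent molecules.

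The insert was enriched in section A. It had 154114 and 126343 reads in section A, compared with 48235 and 61435 in section B and 50183 and 104615 in NucLib. The A/B ratio was 2.27 (95% interval 2.25 to 2.28), or 1.18 on the log2 scale, with 1.19 and 1.18 in the separate runs. Among the 183 other fragments of 146 bp, 87.4% had a lower A/B. Following the steps of the study's methods, its ∆Lk came to −1.02.

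Most nested fragments partitioned the other way. The median log2 A/B was −1.31 over the 64 start-shared members (mean −1.24, SD 1.28, between −4.49 and 0.95) and −1.92 over the 35 end-shared members (mean −1.91, SD 1.65, between −4.80 and 1.20). In the separate runs the medians were −1.50 and −1.255 for start-shared members, and −2.02 and −1.49 for end-shared ones. The A/B ratio was below 1 for 53 of 64 start-shared and 30 of 35 end-shared members. Across all 9277 fragments with the same read minimum the median was 0.08, and 46.4% were below 1. Both classes thus lay on the side of section B, with wide variation within each. The medians depended on the minimum: with 50 reads in each section they were −0.094 and −0.33, and with 10 reads in both sections together −2.95 and −5.21 (0.5 added to each count). Restricted to fragments from 82 bp on, the last setting gave −1.40 for start-shared and −3.12 for end-shared fragments.

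An edgeR quasi-likelihood fit of section A against section B over the whole table, at an adjusted p of 0.05, called 12 members higher in section A and 67 higher in section B. The background was 24.3% of all fragments higher in section A and 21.3% higher in section B. By class, 7 start-shared members, 3 end-shared members, the insert and 1 fragment sharing neither end were higher in section A, and 42, 24, 0 and 1 were higher in section B. Because the members were selected on these counts, the calls are given beside the background only. DESeq2 called 1 of 101 members higher in section A. Its background was 898 of 7478 fragments with its own size factors and 1146 of 7658 with list totals. Leaving out run 2 of section A lowered some values of members called higher there. The fitted log2 A/B fell from 0.55 to 0.28 for start-shared 138 bp and from 0.71 to 0.24 for end-shared 137 bp.

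A/B varied with length. Among the 87 members of 82 to 139 bp the median log2 A/B was −1.62, with 5 called higher in section A and 65 in section B (5.75% and 74.7%). The 3491 other fragments of these lengths had a median of −0.59, with 9.22% and 42.8% called. Among the 17 members of 140 to 148 bp the median was 0.23, with 7 called higher in section A and 2 in section B (41.2% and 11.8%), against a median of 0.59, 45.3% and 5.21% for 1498 others. Both the members and the remaining library therefore lay further toward section B in the shorter range than in the longer one. Within the shorter range the other fragments did not fall steadily with length. Their median log2 A/B was −2.47 at 114 bp (43 fragments), −2.06 at 104 bp (29) and −0.099 at 82 bp (7).

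Measured against the median of other fragments of exactly its own length, a start-shared member was lower by 0.46 on the log2 scale at the median, with 42 members below and 22 above. The end-shared members differed more: 30 were below and 5 above, and their median difference was −1.71. Within the lowest 5% of fragments of their length were 3 start-shared and 17 end-shared members. Other fragments numbered 7 at 82 bp and 13 at 87 bp, and 183 at 146 bp.

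**Figure D2:**
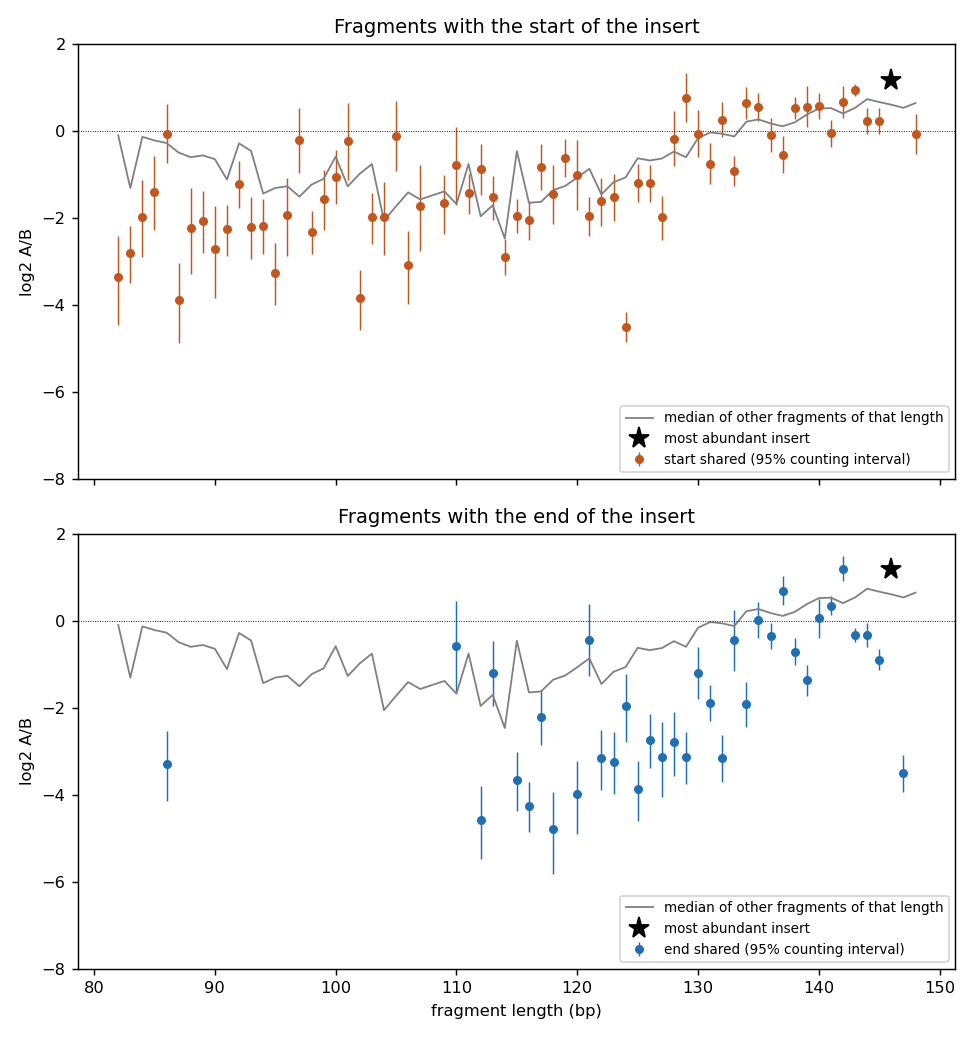
Log2 A/B of start-shared (upper panel) and end-shared members (lower panel) against fragment length (bp), with 95% counting intervals, the insert as a star and the median of other fragments of each length as a grey line. Start-shared points scatter around the grey line above 100 bp, whereas 30 of 35 end-shared points lie below it.

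The change with trimming differed between the sides. With 1 to 5 bp removed, the median log2 A/B was 0.23 for start-shared members and −0.33 for end-shared members (5 each). With 6 to 10 bp removed it was 0.54 and −0.35, and with 11 to 15 bp removed it was 0.26 and −1.88 (5 each). The start-shared medians of these 3 steps were above 0 with the runs summed, although that of 6 to 10 bp was −0.012 in run 1 and 0.67 in run 2. The end-shared medians were below 0 at every step.

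With 16 to 20 bp removed, the medians were −0.17 and −2.80 (5 members each). With 21 to 30 bp removed they were −1.48 over 10 start-shared members and −3.24 over 9 end-shared members, and with 31 to 40 bp removed −1.66 (9 members) and −2.43 (4 members). Every one of the 43 start-shared members lacking 21 bp or more had an A/B below 1. The 24 that lacked 41 to 64 bp had a median of −2.02, and the only end-shared member in that range, of 86 bp, had −3.29. Across members no longer than the insert, Pearson's r of length with log2 A/B was 0.65 over 63 start-shared and 0.61 over 34 end-shared fragments (Spearman 0.69 and 0.71). These points share the libraries, most of their sequence and 1 end, and describe the series only.

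Fragments of equal length but trimmed at opposite sides could be compared at 34 lengths. The start-shared fragment had the higher A/B at 26 of them, and the mean difference in log2 A/B, start-shared minus end-shared, was 1.24 (SD 1.56 over lengths), with 1.24 and 1.23 in the separate runs. With 50 reads in each section it was 0.54, with the start-shared fragment higher at 9 of 12 lengths, and with 10 reads in both sections together it was 1.90 over 62 lengths from 82 bp on. Below 130 bp it was higher at 14 of 18 lengths (mean difference 1.62), and from 130 bp on at 12 of 16 (mean difference 0.82). The difference ranged between −2.52 at 124 bp and 3.88 at 129 bp. Section A held more reads of the start-shared fragment at 29 of 34 lengths, section B at 10, and NucLib at 25.

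**Figure D3:**
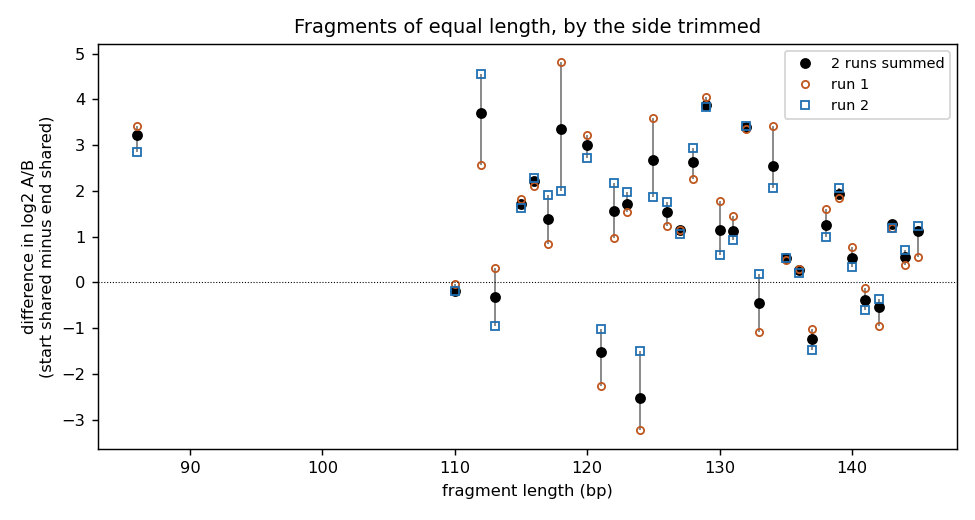
Difference in log2 A/B between the start-shared and the end-shared fragment of the same length (bp), with both runs summed (filled) and in each run (open). Filled points lie above 0 at 26 of 34 lengths, and the lowest is the pair of 124 bp.

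The pair at 129 bp had the widest positive gap. The start-shared fragment had 42 and 38 reads in section A, compared with 15 and 27 in section B and 15 and 40 in NucLib. The end-shared fragment had 16 and 12 reads in section A, compared with 95 and 122 in section B and 9 and 18 in NucLib. Their A/B ratios were 1.69 (95% interval 1.15 to 2.52) and 0.114 (0.0743 to 0.170), and each lacked 17 bases of the insert, on opposite sides.

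The pair at 124 bp went the other way, with a low A/B in its start-shared member, printed above. That fragment had 38 and 35 reads in section A, compared with 640 and 817 in section B and 56 and 132 in NucLib. All section B values lay above all others, and A/B was 0.0444 (0.0346 to 0.0562), the lowest of the start-shared class. The neighbours 1 base shorter and 1 base longer had 42 and 67 reads in section A, compared with 107 and 136 in section B and 46 and 53 in NucLib. A single base of length therefore separated 1457 reads in section B from 107 and 136, with A/B ratios of 0.348 and 0.437 for the neighbours.

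Further start-shared members with a low A/B were those of 87 bp (12 reads in section A, 157 in section B; A/B 0.0678) and 102 bp (20 and 255; A/B 0.0696). The highest A/B of the class belonged to the fragment of 143 bp, with 660 and 702 reads in section A, compared with 194 and 431 in section B and 209 and 568 in NucLib (A/B 1.93, 1.76 to 2.13). It was also the most abundant nested fragment of section A and of NucLib. Those of 142, 140 and 138 bp had A/B ratios of 1.58, 1.49 and 1.45.

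Among end-shared members, the fragment of 118 bp had 3 and 8 reads in section A, compared with 115 and 156 in section B and 5 and 17 in NucLib, and its A/B of 0.0360 (0.0178 to 0.0655) was the lowest of all members with the runs summed. It rests on 11 reads in section A: the fitted log2 A/B of −4.76 was −4.08 without run 1 of section A and −5.74 without its run 2, and in run 2 alone its log2 A/B of −4.15 was above those of start-shared 124 bp (−4.41) and end-shared 112 bp (−4.26). The fragments of 112 bp (14 reads in section A, 297 in section B) and 116 bp (28 and 472) followed with 0.0418 and 0.0526. In each of these 3, both runs of section B exceeded every run of section A and of NucLib. Trimming of 28 to 34 bp at the 5′ side of the insert was common to them. A low A/B was not general in this range. The other members trimmed by these lengths, of 113, 115 and 117 bp, had A/B ratios of 0.434, 0.0789 and 0.216.

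The end-shared fragment of 142 bp had the highest A/B of its class, with 168 and 222 reads in section A, compared with 40 and 111 in section B and 52 and 224 in NucLib (A/B 2.29, 1.89 to 2.78). Its fitted log2 A/B of 1.22 was 1.95 without run 2 of section B. Those of 137 and 141 bp had A/B ratios of 1.61 and 1.27. The fragment of 143 bp, 1 base longer than the first, had 252 and 387 reads in section A, compared with 169 and 541 in section B and 101 and 418 in NucLib. Its log2 A/B of −0.33 was 0.09 in run 1 and −0.35 in run 2, so that the runs did not agree on its direction.

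The 145-bp end-shared fragment, which lacks only the first base of the insert, had 234 reads in section A, 82 and 305 in the runs of section B, and 37 and 176 in those of NucLib (A/B 0.536). The runs differed in a way common to fragments of this kind. Relative to the list totals, run 2 held 1.68, 1.57 and 1.68 times as many reads as run 1 for end-shared members with 1 to 10 bp removed, in section A, section B and NucLib, and 1.32, 1.27 and 1.39 times for the start-shared ones. For the insert the factor was between 1.00 and 1.02. Without run 2 of section B, the 145-bp fragment had a fitted log2 A/B of 0.18 in place of −0.85.

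The end-shared fragment of 147 bp, chosen after its values were seen, had 20 and 32 reads in section A, compared with 264 and 257 in section B and 20 and 63 in NucLib. Its A/B was 0.0885 (0.0652 to 0.118), below that of every other fragment of 147 bp. Its sequence contains the whole insert plus 1 base, and the insert had an A/B of 2.27. The start-shared fragment of 148 bp, with 2 bases more than the insert, had 84 reads in section A, 78 in section B and 60 in NucLib, and an A/B of 0.955 (0.693 to 1.32).

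Of the 4 members that shared neither end, the most abundant was a fragment of 84 bp, chrXII:1012591-1012674, with 24 and 29 reads in section A, compared with 36 and 54 in section B and 12 and 47 in NucLib (A/B 0.522, 0.365 to 0.741). It ended at the same base as the start-shared fragment of 124 bp. The fragment of 140 bp counted 63 reads for section A, against 24 for section B (A/B 2.33, 1.43 to 3.90). Those of 142 bp (11 and 12 reads) and 137 bp (19 and 16 reads) had intervals that included 1.

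Relative to the insert, nested DNA was most frequent in section B. Members with exactly 1 end of the insert had 27.1 and 37.6 reads per 1000 reads of the insert in section A, 138 and 151 in section B, and 34.1 and 48.2 in NucLib. Under 140 bp these values were 13.7 and 18.2 in section A, 110.0 and 111 in section B, and 19.2 and 25.8 in NucLib. Both runs of section B exceeded all runs of the other samples. Among members, the start-shared class held more reads than the end-shared class in each of the 6 lists. In section B this order did not hold once all shorter listed fragments were counted. Those include fragments of 19 to 50 and 51 to 81 bp, which section A did not list. At these lengths section B had 726 and 1654 start-shared reads, and 1000 and 2615 end-shared reads. Over all listed fragments shorter than the insert that had 1 of its ends, start-shared and end-shared reads per 1000 reads of the insert were 17.5 and 9.50 (run 1) and 22.1 and 15.3 (run 2) in section A, 102 and 105 (run 1) and 103 and 118 (run 2) in section B, and 22.1 and 14.5 (run 1) and 28.3 and 22.3 (run 2) in NucLib.

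**Figure D4:**
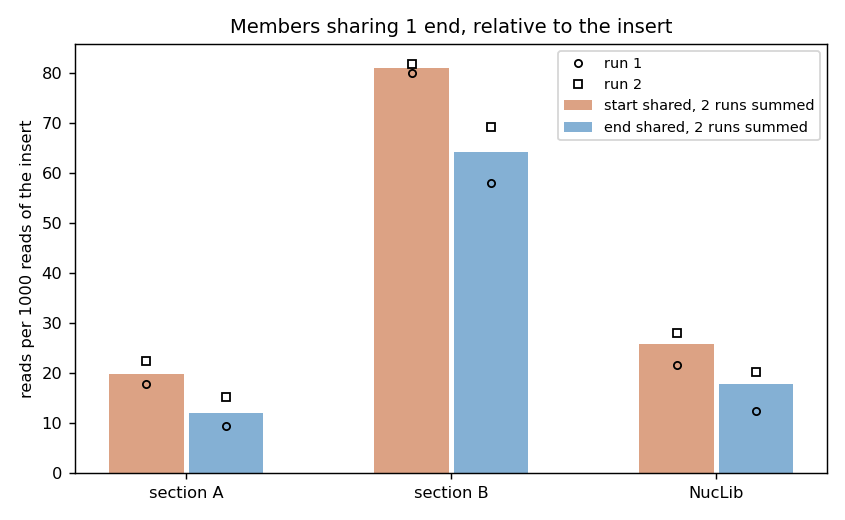
Reads of members sharing the start (orange) or the end (blue) of the insert per 1000 reads of the insert, in section A, section B and NucLib, with bars for the 2 runs summed and open symbols for each run. The bars of section B stand at 81.1 and 64.2, against 19.9 and 11.9 in section A and 25.9 and 17.7 in NucLib. Only fragments with the read minimum in both sections are counted. Over all listed shorter fragments, down to 19 bp, the end-shared reads of section B were the more frequent (103 start-shared and 112 end-shared).

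Against the library before the gel, the same edgeR fit called 66 members higher and 9 lower in section B, beside backgrounds of 21.8% and 38.4% of all fragments. Of the start-shared members 41 were higher and 4 lower, and of the end-shared members 25 were higher and 3 lower. Median log2 ratios of section B to NucLib were 0.91 and 1.45 in these classes. The start-shared fragment of 124 bp was higher in section B by 2.59 on the log2 scale (edgeR adjusted p = 6.14e-43), that of 116 bp in the end-shared class by 3.75 (adjusted p = 1.91e-31), while the insert had a fitted value of −0.86 (adjusted p = 2.25e-66). NucLib reads had no part in choosing the members, but their section B reads did.

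For section A against NucLib, 2 members were called higher and 13 lower, with backgrounds of 10.9% and 30.3%. The median log2 ratios were −0.28 for start-shared and −0.34 for end-shared members. The section A reads took part in choosing the members, so these calls and medians are a description. Left out were 54 start-shared and 81 end-shared fragments under the minimum in section A that reached it in section B. The insert was higher in section A by 0.32 (adjusted p = 1.67e-17) and the start-shared fragment of 124 bp was lower, with a fitted value of −1.88 (adjusted p = 1.96e-08). The direction of these calls hung on the scaling and on single runs. With TMM scaling 11 were higher and 5 lower, beside 1778 and 1488 of all 9277 fragments. The background thus turned as well, from 1010 higher and 2809 lower in the main fit. Leaving out run 1 of section A or run 2 of NucLib also changed which direction prevailed among the members.

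With the length correction of the study's methods, ∆Lk averaged −1.18 over start-shared members (SD 0.319) and −1.61 over end-shared members (SD 0.443), against −1.02 for the insert. The correction centres each length on the mean of the library and then adds a small amount per bp for fragments shorter than the library mean, a direction the methods leave unstated. The paper's supplement reports slower migration of longer constructs, and raising shorter fragments offsets a shift of that direction. With the sign turned the means were −1.60 and −1.84. Start-shared means were −1.22, −1.05, −1.23 and −1.28 for 82 to 99, 100 to 119, 120 to 139 and 140 to 148 bp. The end-shared means were −1.53, −1.65 and −1.57 in the last 3 of these ranges. The lowest value was −2.64, for the fragment of 147 bp, and the highest was −0.47, for the start-shared fragment of 97 bp.

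The minimum of 10 reads fell unevenly on the classes. Section A was under the minimum while section B reached it for 54 start-shared and 81 end-shared fragments of the window, and the reverse held for none of either class. Just inside it, the start-shared fragments of 82 and 90 bp had 10 reads each in section A, with 91 and 58 in section B. Just outside, the start-shared fragment of 108 bp had 9 and 68 reads, and the end-shared ones of 119 and 106 bp had 9 and 137 and 9 and 208 reads, in section A and section B. An end-shared fragment of 69 bp reached 226 reads in section B and was in no list of section A. The class medians above therefore leave out most of the fragments that were scarce in section A.

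Below 82 bp the series went on in section B alone of the gel sections. All 63 start-shared and 62 end-shared fragments found between 19 and 81 bp were listed in section B and none in section A. NucLib listed 18 start-shared and 17 end-shared ones. Outside the CAR2 window, the lists of section A held 736 reads of 79 to 81 bp and 4936 of 82 to 84 bp, against 13071 and 12944 in section B and 4853 and 4797 in NucLib. The step at 82 bp was thus present across the library in section A and not in the other samples, and its part in the absence of short CAR2 fragments was not tested. NucLib had a step of its own, with 1544 reads of 60 to 65 bp and 17386 of 66 to 71 bp. Between 82 and 99 bp, the 18 start-shared lengths were listed in both sections, while 11 of the 18 end-shared lengths were listed in section A and all 18 in section B.

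**Figure D5:**
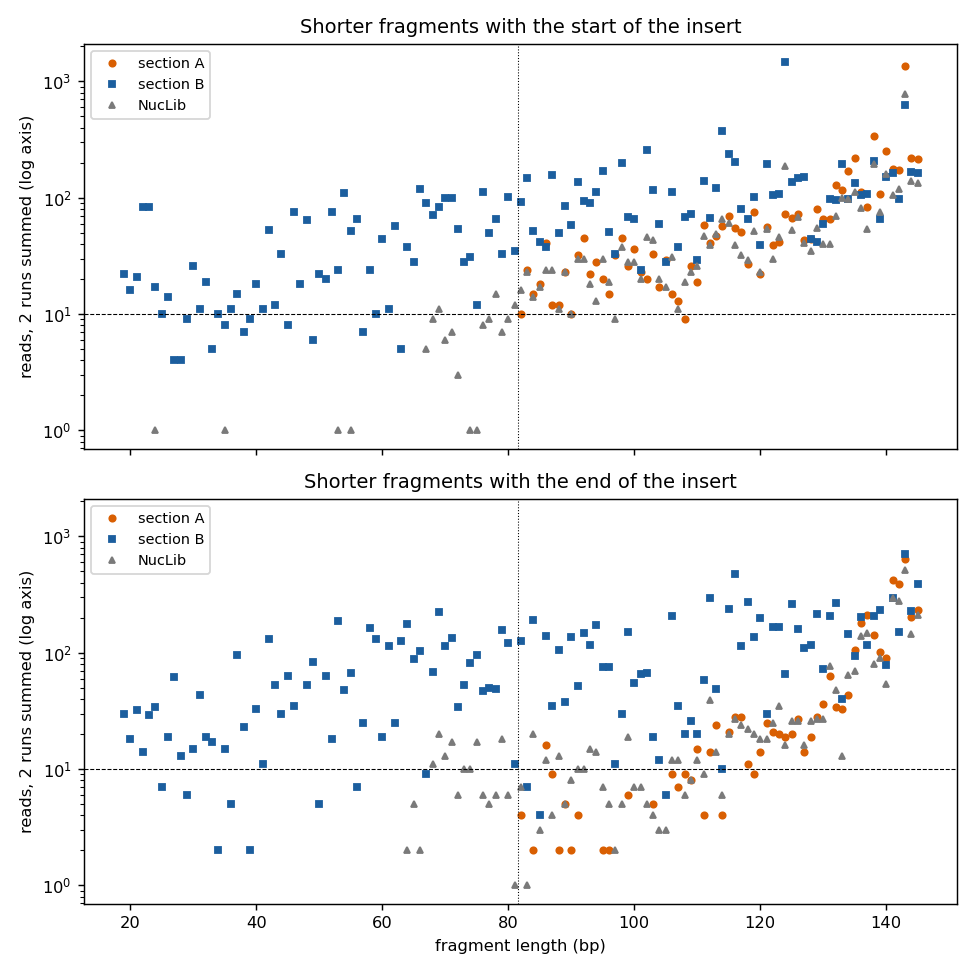
Reads (log axis, 2 runs summed) of each fragment shorter than the insert that shares its start (upper panel) or its end (lower panel), by length (bp), in section A, section B and NucLib; fragments not listed in a sample have no symbol, the dashed line is the minimum of 10 reads and the dotted line lies between 81 and 82 bp. Section A has no symbol left of the dotted line, and under 110 bp most end-shared symbols of section A lie below the minimum.

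The base at the inner end was described for the 97 members shorter than the insert that kept 1 of its ends. It was read outward from the kept end, on the plus strand for start-shared and on the minus strand for end-shared members. For end-shared members it is therefore the complement of the first base of the sequence as printed above. Median log2 A/B was −0.62 where the last base kept was A (17 members), −0.88 for T (23), −1.62 for C (27) and −1.90 for G (30). The groups were not matched in length or side, as 18 of the 30 members with G but 3 of the 27 with C were end-shared.

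The closest case for comparison was LPX1, for a peroxisomal lipase, whose insert on chromosome XV was the only one with more reads in NucLib. The medians of log2 A/B were −1.31 for start-shared and −1.92 for end-shared fragments of CAR2, and −2.17 and −2.49 for the 53 and 73 such fragments of LPX1. The order of the classes was not the same for every insert. The insert ranked 3 in NucLib, on chromosome XV, had start-shared and end-shared medians of 0.26 and −1.08. That ranked 4, on chromosome VIII, had −2.52 and −1.85. Nested reads per 1000 reads of the insert were 31.8 in section A, 145 in section B and 43.6 in NucLib for CAR2, and 23.3, 153 and 47.0 for LPX1. Over the 20 most abundant inserts, the nested reads per insert read in section B over those in section A ranged between 0.717 and 6.57, with CAR2 at 4.57 and LPX1 at the top. The inserts differed in length and in the number of nested fragments with the read minimum. That number was 1 for the insert at 0.717, 99 for CAR2 and 126 for LPX1. No test was made of these differences.

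Elsewhere in CAR2 no fragment with the read minimum lay within the gene. A fragment of 158 bp, chrXII:1012420-1012577, overlapped its start, with 77 and 54 reads in section A, compared with 38 and 45 in section B and 26 and 63 in NucLib (log2 A/B 0.49). In a list of 14 genes of arginine and proline use and its control, 7 genes held 12 fragments, of which 3 were called higher in section A and 5 higher in section B. These shares stand beside the 24.3% and 21.3% of all fragments. They included PUT1, for proline oxidase, with 1 fragment at −2.76, PUT4, for the proline permease, with 1 at −2.66, and PRO3, for a proline biosynthetic enzyme, with 4 between 0.34 and 0.61 on the log2 A/B scale.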

How the data were processed

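Inserts were amplified through their adaptors from 3 samples, each read in 2 paired-end runs. The authors trimmed adaptors, aligned pairs to R64 with Bowtie 1.1.2 and deposited a raw read count per distinct fragment and run. BWA, SAMtools and Picard are further tools in the submitters' processing notes. No collapsing of reads by molecular identifier is described, so intervals cover counting error only. The 6 lists stop at 65536 lines (lowest counts 1 in section A and NucLib, 2 in section B). Starts, deposited from 0, are given from 1.

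Both runs were summed, and shares were taken of list totals. edgeR 4.0.16 (R 4.3.3, limma 3.58.1) was run on the 9277 fragments that reached 10 reads both in A and in B, with list totals as library sizes and Benjamini-Hochberg adjustment, after being tested on simulated data; DESeq2 1.42.0, TMM scaling, other minimums, single runs and a replicate block were alternatives. Since the runs are technical, p-values measure only the spread of sequencing. The methods call runs 1 and 2 separate flow-cell lanes, and the names of the deposited lists carry the same flow-cell tag for same-numbered runs, which is where the pairing comes from; run differences of sections A and B correlated at 0.06 over these fragments and 0.01 over the 104 members. ∆Lk was the Z-score of the share of A in A and B, times 0.85, minus the mean of its length, plus 0.007 per bp under 144 bp (minus 0.007 per bp over it, a direction chosen here), plus −1.26.

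Named fragments were the insert, the 4 with most NucLib reads and the 3 highest and 3 lowest A/B (at least 100 reads in both sections together) of each class, those beside the minimum and all sharing neither end, of which the text gives examples. Members and lists were chosen with earlier results of these data known. Sequences were read from the RefSeq reference. Python 3.11.15, numpy 2.4.6, pandas 2.3.3, scipy 1.17.1 and matplotlib 3.10.9 were used.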

Additional observations from a re-analysis of the deposited data

How the results depend on the processing

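Members called higher in section A numbered 12, beside 2256 of all 9277 fragments. With DESeq2 the number was 1 of 101 under either scaling. Its background was 898 of 7478 fragments with its own size factors and 1146 of 7658 with list totals. Leaving out run 2 of section A lowered the fitted log2 A/B of several of the 12. Those called higher in section B numbered 67, beside 1975 of all 9277 fragments. They were 19 of 42 with a minimum of 50 reads, beside 787 of 3844 fragments. With 10 reads in both sections together they were 202 of 253, beside 11514 of 26809. The last setting admits fragments under 82 bp, of which section A listed none in this series. With the replicate block for the pairing of runs, 13 members were higher in section A and 67 in section B, beside 2338 and 2023 of all 9277 fragments. No call count of the comparisons with NucLib moved (15 and 75), though for section A it split into 4 higher and 11 lower, beside 986 and 2879 of all fragments.

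The insert's log2 A/B was 1.07 with TMM and 1.44 with totals outside the CAR2 and LPX1 windows. The start-shared median lay between −1.50 and −1.255 in single runs and was −1.04 with outside totals, −0.999 and −0.094 with minimums of 20 and 50 reads. The end-shared median lay between −2.02 and −1.49 in single runs and was −1.20 and −0.33 with these minimums. Settings chosen after seeing the data (10 reads in both sections together, 0.5 added) gave −2.95 and −5.21 at any length. From 82 bp on they gave −1.40 for start-shared and −3.12 for end-shared fragments. The neither-end median of −0.11 had no stable direction: −0.99 and 0.64 in single runs, 0.15 with outside totals, 0.14 with 20 reads and 1.11 with 10 together, at any length or from 82 bp on. The difference at equal length, 1.23 to 1.24 in single runs, was 1.07 over 26 lengths with 20 reads, 0.54 over 12 with 50, 1.23 with 0.5 added, and 1.32 with 10 together (1.90 from 82 bp on), and stayed positive in these settings. Mean ∆Lk without the length mean was −1.49 for start-shared and −1.80 for end-shared members, and −1.25 for start-shared ones with 50 reads. With the sign of the shift per bp turned, a setting also chosen after seeing the data, the start-shared and end-shared means were −1.60 and −1.84. The causes were not tested.

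Of 215 pairs of a setting and one of 23 named fragments, 166 kept direction and side of the threshold, 38 lost the call, 3 gained it and 8 reversed. With a run left out, fitted log2 A/B lay between −0.76 and 0.59 for the end-shared fragment of 143 bp (0.14 without run 1 of section A), between −1.39 and 0.18 for that of 145 bp, between −1.27 and 0.39 for the neither-end fragment of 142 bp (0.11 without run 2 of section B), and between −0.68 and 1.21 for that of 137 bp (−0.32 without run 2 of section A, and −0.040 with TMM). Depth limits the members near the minimum, such as those of 82 and 90 bp with 10 reads in section A.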
